A study of Mus musculus with 8 samples.

Results

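WNT ligands, their receptors and the proteins that carry the signal to the nucleus were followed in mouse pancreatic islets kept in high or low glucose. The set holds every protein-coding gene of the deposited table named as a Wnt, Fzd, Dkk, Sfrp, Dvl or Rspo gene with a number, together with a list of named pathway genes from Axin1 to Gsk3b, and comprises 60 of 27534 genes. Dkk1 and Notum are not analysed here. High glucose islets (4 libraries) came from C57BL/6J mice and spent 72 h in RPMI medium with 20 mM glucose, and low glucose islets (4 libraries) spent the same time with 7.5 mM. The labels give no further allele or agent, no age, and nothing on whether libraries came from separate animals, so p-values measure the spread between these libraries, which may be technical. Medium for both groups held serum and HEPES buffer, and no group without culture is in the series, so each value is a level after 72 h in culture.

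WNT proteins are secreted lipid-modified ligands that Porcn acylates and Wls escorts to the cell surface. They bind Frizzled receptors, and in the canonical branch the co-receptors LRP5 and LRP6 as well, upon which Dishevelled proteins disable a complex of Axin, APC and GSK3 that otherwise marks β-catenin for degradation. Stabilised β-catenin then binds TCF and LEF factors on DNA. R-spondins, sensed by LGR receptors, keep Frizzleds on the membrane by removing the ubiquitin ligases ZNRF3 and RNF43, while DKK and SFRP proteins block the receptors or the ligands. In the pancreas the pathway is best known for its part in organ growth, for Wnt4 expression in maturing β cells and for TCF7L2, a diabetes risk gene in humans.

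The libraries held 19543045 to 24949515 counts each. Of the 60 members, 40 passed a filter on low counts (edgeR's filterByExpr) and were tested. Between 19.6% and 25.7% of each library came from the 10 β-cell marker genes. Libraries were uneven in other cell types. The summed level of 15 fibroblast and stellate markers, in CPM (counts scaled to a common library size), was 1845 in high glucose replicate 1, against 316 to 626 in the other high glucose libraries and 275 to 589 in low glucose. The median log2 fold change of these 15 genes was 0.63. The 14 acinar markers summed to 3400 to 17900 CPM with high glucose and 1230 to 10300 CPM with low glucose. The 5 genes of the δ-cell list summed to 4160 to 5690 CPM with high glucose and 2290 to 3710 CPM with low glucose, without overlap. Among them only Pcsk1, a prohormone convertase gene that β cells also express, was called, and Sst had an adjusted p of 0.0628 in edgeR. The log2 fold changes were 1.14 for Pcsk1 and 0.65 for Sst, but 0.02 for Rbp4, -0.14 for Hhex and -0.44 for Ghsr. The higher sum thus rests on Pcsk1 and Sst and not on the list as a whole. Endothelial markers stayed at 40.8 to 58.6 CPM in sum in every library. The 8 α-cell markers summed to 12800 to 25500 CPM with high glucose and 14300 to 29500 CPM with low glucose. The 3 markers of PP cells (pancreatic polypeptide) summed to 2980 to 4370 CPM with high glucose and 3050 to 5920 CPM with low glucose. Replicate 2 had the highest α-cell and PP-cell sums within each group. Low glucose replicate 2 stood apart: it was the lowest of its group for 17 of the 40 tested members, and without it the number of changed genes over the whole table was 5132 in place of 3854. In bulk islets, fewer cells of a type and less RNA per cell cannot be told apart. The part of these cell types in the results below was not tested.

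In high glucose, 4 members of the WNT set rose and 8 fell. Those that rose were Tcf7l1, Rspo4, Dvl3 and Fzd3. Those that fell were Wnt4, Fzd7, Lgr4, Dvl2, Fzd8, Axin1, Lrp5 and Axin2. A change was called at an adjusted p under 0.05 (edgeR's quasi-likelihood test, Benjamini-Hochberg over all 15442 genes tested). This share of 30.0% (12 of 40) lies close to the background, since 25.0% of all tested genes were called, 13.1% higher and 11.9% lower. The share of members that rose was 10.0% and the share that fell was 20.0%. The median log2 fold change of the tested members was 0.00, against -0.01 for all genes, and the median of its size was 0.32 against 0.24. Members without overlap between the groups numbered 12 of 40 as well, where the background is 27.3%. Of the 12 called members, 10 had no overlap, while Axin2 and Lrp5 overlapped. Ctnnb1 and Wls had no overlap but were not called.

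For replicate numbers 2, 3 and 4, libraries of the same number deviated together from their group means (r = 0.449, 0.404 and 0.475). For number 1 r was only 0.101, below the 0.207 of high glucose replicate 4 with low glucose replicate 1. The labels do not say that the numbers pair libraries, so the blocked values here and below rest on that assumption. With the replicate number as a block, 5 members rose and 11 fell, which is 16 of 40 against a background of 37.4% in the same fit. All 12 called members were among these 16. The 4 that joined were Lrp6, Znrf3, Wls and Fzd5. When libraries were scaled by their totals, 2 members rose and 9 fell, and among all genes 37.8% of the changed genes were then higher, against 52.5% with TMM. Wnt4, Fzd7, Tcf7l1, Rspo4 and Lgr4 were called under each of the 20 alternative settings run for them, of which 12 left out libraries. The other 7 each lost their call at least once. Members that rose numbered 2 when high glucose replicate 1 (the fibroblast-rich library), 3 or 4 or low glucose replicate 1 or 3 was left out. Members that fell numbered 4 with low glucose replicate 1 left out, and 5 with high glucose replicate 2, 3 or 4 or low glucose replicate 4 left out. The background in these 7 fits was 19.1% to 20.5%. Without low glucose replicate 2, 6 rose and 11 fell, which is 41.5% of the members then tested against a background of 32.4%.

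**Figure D1:**
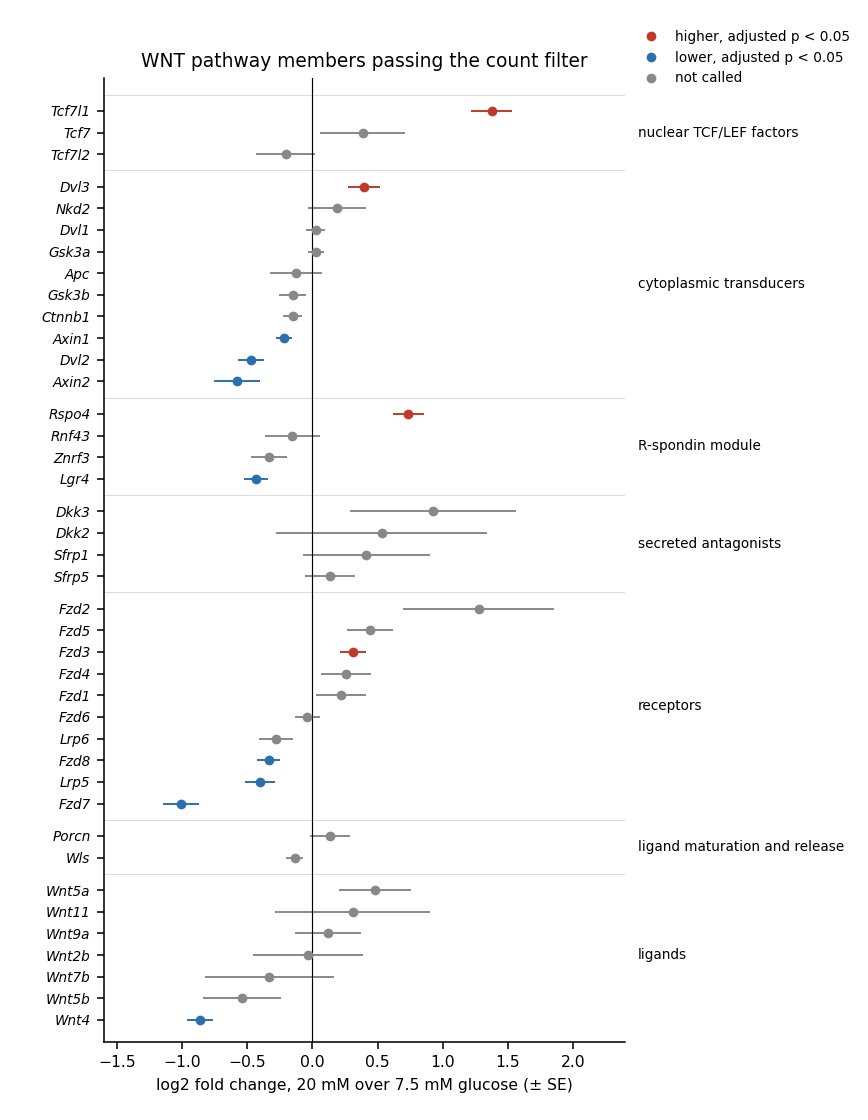
Log2 fold change (20 mM over 7.5 mM glucose) with standard error for the 40 tested members, grouped by role, red and blue where the adjusted p is under 0.05. Tcf7l1 lies farthest to the right of the called members and Fzd7 farthest to the left, and Dkk2 has the widest error bar.

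The upstream sequences of the members with the largest called changes, and of Axin2 as the textbook β-catenin target, are shown so that TCF and E-box letters can be set beside those changes. They come from RefSeq (GRCm38.p6), where 41 of the 60 members and 8 of the 12 called ones had an entry, and each line holds only bases that lie before both the RefSeq start and the 5′ end of the deposited gene model. Windows of 300 bases, from 250 before to 50 after the start, were searched on both strands for CTTTGAT and CTTTGTT, which resemble the TCF/LEF core, and for the E-box CACGTG, which MYC and ChREBP type factors can bind. The first pair differ only in the sixth base. The Wnt4 line covers chr4:137277385-137277488 (plus strand), Fzd7 chr1:59481897-59482146 (plus), Tcf7l1 chr6:72789255-72789295 (minus), Rspo4 chr2:151842677-151842926 (plus) and Axin2 chr11:108920099-108920348 (plus). Capitals mark a motif match.
Wnt4: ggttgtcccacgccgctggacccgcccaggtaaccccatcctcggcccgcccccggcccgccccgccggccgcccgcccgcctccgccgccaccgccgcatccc
Fzd7: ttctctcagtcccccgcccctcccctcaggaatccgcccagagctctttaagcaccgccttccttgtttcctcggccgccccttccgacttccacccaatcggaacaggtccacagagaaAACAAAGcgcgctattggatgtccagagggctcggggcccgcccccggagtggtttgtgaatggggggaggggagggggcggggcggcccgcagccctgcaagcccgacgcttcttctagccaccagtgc
Tcf7l1: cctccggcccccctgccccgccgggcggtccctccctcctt
Rspo4: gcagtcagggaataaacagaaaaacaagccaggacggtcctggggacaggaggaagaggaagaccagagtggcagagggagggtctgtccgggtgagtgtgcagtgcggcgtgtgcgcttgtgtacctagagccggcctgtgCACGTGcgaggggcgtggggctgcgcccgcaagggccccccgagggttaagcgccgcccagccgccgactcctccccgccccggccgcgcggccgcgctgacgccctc
Axin2: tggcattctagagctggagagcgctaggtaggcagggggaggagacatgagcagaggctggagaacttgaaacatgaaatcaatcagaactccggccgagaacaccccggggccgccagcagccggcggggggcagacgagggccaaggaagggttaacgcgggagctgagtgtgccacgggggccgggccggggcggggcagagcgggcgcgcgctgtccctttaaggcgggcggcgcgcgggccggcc

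The Fzd7 line holds 1 match to CTTTGTT on the opposite strand (AACAAAG), and the Rspo4 line holds 1 CACGTG. No match lies in the other 3 lines, which says only that these letters are not in those bases. Over 32851 windows of all genes, 3.73% held CTTTGAT, 5.85% CTTTGTT and 7.15% CACGTG. Over 41 member windows the shares were 2.44% (Wnt11), 4.88% (Fzd7 and Wnt3) and 9.76% (Dvl2, Fzd9, Rspo4 and Wnt9a). Member windows had a median GC content of 70.0%, against 52.7% for all windows. The member windows were 1 per gene and only of protein-coding genes. All windows were taken without such a selection, so these shares and GC contents compare unlike sets.

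Among the ligands, Wnt4 was the abundant one and it fell. Wnt4 (ENSMUSG00000036856, GRCm38 chromosome 4, 137277489 to 137299726), a ligand that signals through both canonical and other branches, was at 244, 271, 259 and 219 CPM in high glucose replicates 1 to 4. In low glucose the values were 411, 526, 449 and 420 CPM. Every high glucose library lay below every low glucose library. The mean fell 1.82-fold, from 452 ± 52.3 to 248 ± 22.3 CPM (SD, n = 4 per group here and below), with a log2 fold change of -0.86 ± 0.10 (SE) and adjusted p = 0.000184 in edgeR.

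On the length-corrected scale of the deposited FPKM (counts scaled by gene length and library total), Wnt4 made up 95.4% ± 0.942 of the summed level of the 17 ligands in high and 97.2% ± 0.578 in low glucose. These ranges, 94.2% to 96.5% and 96.3% to 97.6%, overlapped. The summed ligand level was 61.4 ± 5.15 FPKM in high and 108 ± 12.3 FPKM in low glucose, without overlap. Wnt5b was the next ligand, at a mean of 1.03 FPKM over the 8 libraries, followed by Wnt9a at 0.607 and Wnt5a, a ligand of the non-canonical branch, at 0.325.

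No ligand other than Wnt4 was called, and none rose (edgeR; 0 higher also at an unadjusted p under 0.05, with DESeq2 and with limma-voom). Wnt5a was at 3.99, 3.22, 1.79 and 3.03 CPM with high glucose and 1.59, 2.30, 2.84 and 1.92 CPM with low glucose, with overlap and a log2 fold change of 0.48 ± 0.28 (SE). Wnt5b gave -0.54 ± 0.30 (SE), and Wnt2b, Wnt7b, Wnt9a and Wnt11 lay between -0.33 and 0.31 on the same scale. Of the 17 ligands, 10 did not reach the filter: Wnt1, Wnt2, Wnt3, Wnt6, Wnt7a, Wnt8b, Wnt9b, Wnt10a, Wnt10b and Wnt16. Wnt7a had 106 counts in all, 45 of them in low glucose replicate 3, and the other 9 had 2 to 21 counts over the 8 libraries.

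The genes for ligand maturation and release did not pass in either direction. Wls (mean 30.0 FPKM), which carries WNT proteins to the surface, was at 258, 264, 260 and 241 CPM with high glucose and 286, 286, 282 and 271 CPM with low glucose. The groups did not overlap, yet the log2 fold change was only -0.14 ± 0.06 (SE), adjusted p = 0.154 in edgeR. Blocking by replicate number gave 0.0483 and scaling by library totals gave 0.0266. Porcn, the acyltransferase, had a log2 fold change of 0.13 ± 0.15 (SE). At an unadjusted p under 0.05, edgeR had 0 of these 2 genes in either direction, as did DESeq2 and limma-voom after adjustment.

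Receptor transcripts moved in both directions, 1 of the 10 tested rising and 3 falling. These shares of 10% and 30% stand beside a background of 13.1% higher and 11.9% lower, and rest on few genes. Fzd7 (ENSMUSG00000041075, chromosome 1, 59482424 to 59486955), a Frizzled linked to stem and progenitor cells, was at 20.2, 15.2, 19.7 and 13.9 CPM with high glucose. Its low glucose values were 36.6, 28.8, 39.0 and 34.0 CPM. The groups were well apart, and the mean fell 2.01-fold from 34.6 ± 4.39 to 17.2 ± 3.16 CPM (log2 fold change -1.01 ± 0.14 SE, adjusted p = 0.000495, edgeR).

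Fzd8 was at 11.4, 10.6, 10.5 and 10.1 CPM with high glucose and 13.6, 14.0, 13.5 and 12.7 CPM with low glucose, without overlap. It fell 1.26-fold (adjusted p = 0.0214). Leaving out high glucose replicate 3 or 4, or low glucose replicate 1, ended the call (0.0533, 0.0614 and 0.0562), as did testing with no filter (0.0573). Fzd3 (chromosome 14, 65192449 to 65262463), known from axon guidance and planar polarity, was at 63.3, 56.8, 65.6 and 61.4 CPM with high glucose. In low glucose it was at 51.9, 39.3, 53.9 and 54.0 CPM, so that low glucose replicate 2 was the lowest and the groups did not overlap.

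The rise of Fzd3, 1.24-fold with adjusted p = 0.0494 in edgeR, lies at the threshold. Leaving out any single library other than low glucose replicate 2 ended the call (0.0512 to 0.127). So did scaling by library totals (0.226), DESeq2 size factors (0.0525) and testing with no filter (0.0621), while blocking by replicate number gave 0.0022.

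The mix of Frizzleds differed between the groups. Fzd7 took 33.7% ± 2.29 of the summed FPKM of the 10 Frizzled genes in low and 19.2% ± 2.19 in high glucose, and Fzd3 took 17.1% ± 1.72 and 24.7% ± 1.84. Neither share overlapped between the groups, and by FPKM Fzd3 was the leading Frizzled in high glucose where Fzd7 led in low glucose. This change of rank depends on the gene lengths used (12804 bases for Fzd3, 4532 for Fzd7). In CPM, which are not corrected for length, Fzd3 was above Fzd7 in high (61.8 against 17.2) and in low glucose (49.8 against 34.6). The summed level was 22.1 ± 1.46 FPKM in low and 19.4 ± 1.67 in high glucose, with overlap. Fzd6 (16.1 ± 1.66 against 16.6 ± 1.05 CPM, high against low) differed by less than its spread. Fzd1 (10.4 ± 2.44 against 8.91 ± 1.59 CPM) was higher with high glucose in 4 of 4 replicate numbers but was not called, also when blocked (adjusted p = 0.446 and 0.268). Fzd5 gave 0.44 ± 0.17 (SE) on the log2 scale, adjusted p = 0.0926, or 0.0381 when blocked by replicate number. Fzd4 gave 0.26 and the low Fzd2 gave 1.28 ± 0.58 (SE), adjusted p = 0.142. Fzd9 and Fzd10 were below the filter, with 30 and 19 counts in all.

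Lrp5 (chromosome 19, 3584828 to 3686564), which encodes a co-receptor for canonical ligands, was at 36.2, 30.8, 38.9 and 39.2 CPM with high glucose and 48.2, 38.1, 52.8 and 52.5 CPM with low glucose. Only low glucose replicate 2 fell within the high glucose range, and within each replicate number the high glucose library was the lower. Lrp5 fell 1.32-fold (adjusted p = 0.0278, edgeR). Leaving out high glucose replicate 1 or 2, or any low glucose library but replicate 2, ended the call (0.064 to 0.0828), and the block gave 0.000224. Lrp6, the other co-receptor gene, had the highest mean FPKM of the receptor genes in high glucose (5.41, with Fzd3 next at 4.78), while in low glucose Fzd7 was above it (7.45 against 6.49). Lrp6 was at 77.9, 61.6, 79.0 and 80.6 CPM with high glucose and 96.5, 69.3, 104 and 93.7 CPM with low glucose. Both libraries numbered 2 were the lowest of their group. Its log2 fold change was -0.28 ± 0.13 (SE), adjusted p = 0.144, and blocking by replicate number gave -0.27 ± 0.06 (SE), adjusted p = 0.00305.

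**Figure D2:**
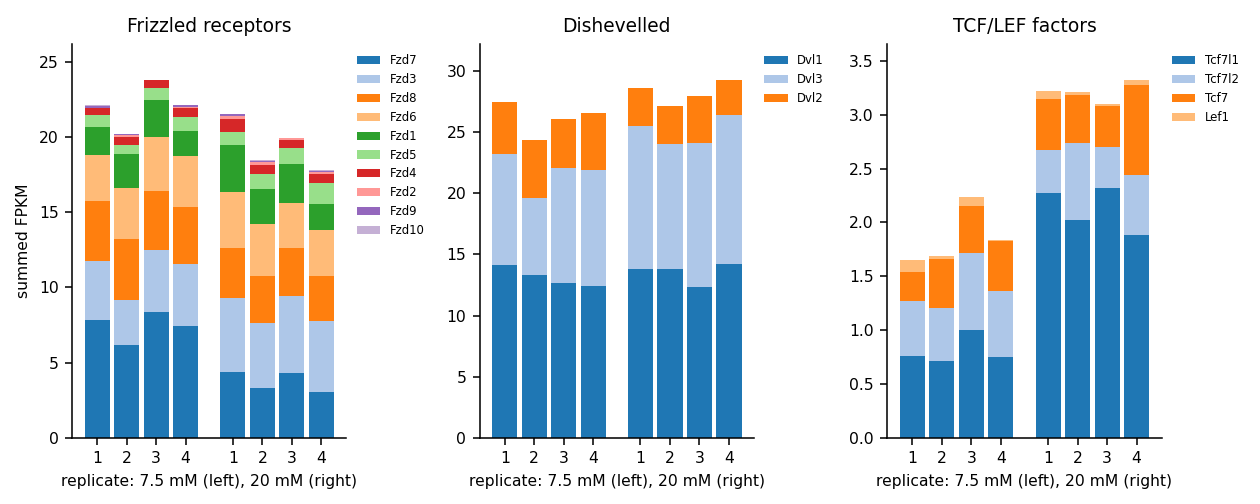
Stacked deposited FPKM of the Frizzled, Dishevelled and TCF/LEF genes in each library, with the 4 low glucose libraries on the left and the 4 high glucose libraries on the right of each panel. Fzd7 and Dvl2 take a smaller share in every high glucose library, and Tcf7l1 a larger one.

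The secreted antagonists of the set gave no call. Frzb, which encodes a secreted relative of the SFRP proteins, is outside the set and was called lower, as given further below. Its mean of 68.0 FPKM was above that of every antagonist in the set. Sfrp5 (25.3 FPKM), a soluble decoy for WNT ligands, held 94.2% ± 3.18 of the summed level of the set's 6 antagonist genes in high and 95.7% ± 0.57 in low glucose. It was at 48.7, 59.5, 44.2 and 52.6 CPM with high glucose and 35.0, 68.4, 36.1 and 47.4 CPM with low glucose. Low glucose replicate 2 was the highest of all 8, the groups overlapped, and the log2 fold change was 0.14 ± 0.19 (SE), adjusted p = 0.662. That library also had the highest α-cell and PP-cell marker sums, and the part of these cells in the Sfrp5 values was not tested.

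Dkk3, a divergent member of the Dickkopf family, was at 3.27, 0.572, 1.13 and 0.606 CPM with high glucose and 0.758, 1.23, 0.757 and 0.192 CPM with low glucose. Its highest value was in high glucose replicate 1, the library with the highest fibroblast marker sum, as was that of Sfrp1 (6.78 CPM, against 1.46 to 3.27 CPM in the other 3 high glucose libraries). The coefficient of variation within high glucose was 91.5% for Dkk3, 61.0% for Sfrp1 and 128% for Dkk2, against 8.99% for Wnt4. Of the 4 antagonists tested, edgeR had 0 in either direction at an unadjusted p under 0.05, and DESeq2 and limma-voom called none. Sfrp2 and Sfrp4 were below the filter.

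In the R-spondin module, the secreted enhancer Rspo4 rose while the receptor gene Lgr4 fell. These are 1 of 4 tested genes in each direction, or 25%, beside a background of 13.1% higher and 11.9% lower, and rest on few genes. Rspo4 (ENSMUSG00000032852, chromosome 2, 151842927 to 151874668), an R-spondin known for its role in nail formation, was at 79.2, 58.7, 79.9 and 59.0 CPM with high glucose and 41.6, 38.0, 44.9 and 41.4 CPM with low glucose. The lowest high glucose library was above the highest low glucose library. The mean rose 1.67-fold from 41.5 ± 2.84 to 69.2 ± 12 CPM (log2 fold change 0.74 ± 0.12 SE, adjusted p = 0.00116, edgeR). Rspo4 held at least 99.2% of the summed R-spondin FPKM in every library, and the sum was 29.0 ± 5.12 FPKM in high and 17.2 ± 1.18 in low glucose. Rspo1 was listed at 0.0962, 0.104, 0 and 0 CPM with high glucose and 0.0379, 0.161, 0.237 and 0 CPM with low glucose. Rspo1, Rspo2 and Rspo3 thus had only 13, 8 and 14 counts over all 8 libraries.

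Lgr4 (chromosome 2, 109917647 to 110014257), which encodes an R-spondin receptor, was at 26.8, 24.6, 24.0 and 27.5 CPM with high glucose and 33.2, 31.7, 34.0 and 40.3 CPM with low glucose, without overlap. It fell 1.35-fold (adjusted p = 0.0055, edgeR). Lgr5, the receptor known as a stem cell marker, was at 0.144, 0, 0 and 0.283 CPM with high glucose and 0.114, 0.107, 0.0473 and 0.048 CPM with low glucose. Those 17 counts lie near the floor, since 3 counts correspond to 0.114 to 0.161 CPM in a library. For the ubiquitin ligases that R-spondins remove, Znrf3 was at 13.8 ± 1.09 CPM with high glucose and 17.4 ± 3.21 CPM with low glucose (log2 fold change -0.34 ± 0.14 SE, adjusted p = 0.106, or 0.0197 when blocked). Rnf43 was at 2.42 ± 0.391 and 2.70 ± 0.468 CPM, a difference within its spread.

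The cytoplasmic transducers included 1 rise and 3 falls among 10 tested genes, with Dishevelled members going opposite ways. Here too the shares are 10% and 30%, from few genes, where 13.1% of all tested genes rose and 11.9% fell. Dvl2 (chromosome 11, 70000595 to 70012301) was at 20.3, 19.9, 24.2 and 18.2 CPM with high glucose and 27.9, 31.0, 25.9 and 29.7 CPM with low glucose, without overlap, a 1.39-fold fall (adjusted p = 0.00583, edgeR). Of the 20 other settings, only the removal of both libraries numbered 4 ended that call (0.0572). Dvl3 (chromosome 16, 20516982 to 20534010) was at 75.5, 66.8, 75.4 and 79.0 CPM with high glucose and 59.9, 41.7, 62.2 and 61.6 CPM with low glucose. The groups did not overlap, with low glucose replicate 2 far below the other low glucose libraries.

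Dvl3 rose 1.32-fold (adjusted p = 0.036, edgeR; 0.00072 when blocked by replicate number). Scaling by library totals ended the call (0.156), as did leaving out any high glucose library but replicate 2, or low glucose replicate 1 or 3 (0.0517 to 0.0926). Dvl1, the most abundant of the family by FPKM, was at 68.5 ± 4.48 CPM with high glucose and 67.2 ± 4.24 CPM with low glucose. By FPKM, Dvl2 was 17.0% ± 1.96 of the family in low and 11.5% ± 1.64 in high glucose and Dvl3 was 32.7% ± 4.73 and 40.5% ± 1.94, both without overlap. The summed Dishevelled level was 26.1 ± 1.30 FPKM in low and 28.3 ± 0.916 in high glucose, with overlap.

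Of the scaffold genes of the β-catenin destruction complex, Axin1 and Axin2 fell. Axin1 (chromosome 17, 26138688 to 26195811) was at 83.1, 77.7, 76.8 and 80.7 CPM with high glucose and 94.9, 96.2, 88.4 and 91.3 CPM with low glucose. The groups did not overlap, but the fall was small, 1.17-fold (adjusted p = 0.0251), and leaving out any high glucose library but replicate 1, or low glucose replicate 1 or 4, ended the call (0.0566 to 0.0747), as did testing with no filter (0.0725). Axin2 (chromosome 11, 108920349 to 108950783), a feedback inhibitor that β-catenin itself induces, was at 10.2, 6.50, 6.41 and 6.11 CPM with high glucose and 10.0, 10.8, 12.9 and 9.89 CPM with low glucose.

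High glucose replicate 1 lay within the low glucose range of Axin2 and the other 3 high glucose libraries lay below it. Axin2 fell 1.49-fold (log2 fold change -0.58 ± 0.18 SE, adjusted p = 0.0374, edgeR). Its adjusted p was 0.00363 once high glucose replicate 1 was left out. Leaving out any other high glucose library, or any low glucose library but replicate 2, ended the call (0.0559 to 0.102). In 3 of the 4 replicate numbers the high glucose library was the lower.

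By FPKM, Ctnnb1, which encodes β-catenin, lay above Wnt4 in high glucose (means of 79.3 and 58.6) and below it in low glucose (86.8 and 105). Ctnnb1 was at 441, 384, 406 and 432 CPM with high glucose and 451, 461, 470 and 466 CPM with low glucose. The groups did not overlap, yet the log2 fold change of -0.15 ± 0.07 (SE) did not pass (adjusted p = 0.151, edgeR). Gsk3a, a kinase of the destruction complex, was at 60.8 ± 1.52 CPM with high glucose and 59.7 ± 2.80 CPM with low glucose. Its paralog Gsk3b was at 111 ± 8.61 and 123 ± 16.1 CPM. It was lower with high glucose in 4 of 4 replicate numbers but was not called, also when blocked (adjusted p = 0.323 and 0.0653). Apc, which encodes a further scaffold, was at 66.9 CPM in both libraries numbered 2 and at 103 to 118 CPM in the other 6. Nkd2, a Dishevelled antagonist gene, had a log2 fold change of 0.19 ± 0.22 (SE), and Nkd1 was below the filter.

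Of the TCF/LEF genes, Tcf7l1 rose, and by FPKM it was the leading transcript in both groups. In CPM, which are not corrected for gene length, Tcf7l2 was above it in low glucose (means of 5.21 and 3.24). Tcf7l1 (ENSMUSG00000055799, chromosome 6, 72626378 to 72789254), which encodes the TCF factor best known as a repressor of β-catenin targets, was at 9.05, 8.06, 9.10 and 7.48 CPM with high glucose. In low glucose it was at 3.07, 2.89, 4.02 and 2.98 CPM. No library of one group came near the other, and the mean rose 2.59-fold from 3.24 ± 0.527 to 8.42 ± 0.789 CPM (log2 fold change 1.38 ± 0.16 SE, adjusted p = 0.000152, edgeR).

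Tcf7l2 was at 3.51, 6.34, 3.39 and 4.85 CPM with high glucose and 4.59, 4.39, 6.44 and 5.43 CPM with low glucose. The groups overlapped, and the log2 fold change was -0.20 ± 0.23 (SE), adjusted p = 0.558. By FPKM, Tcf7l1 held 43.5% ± 2.41 of the summed level of the 4 genes in low and 66.3% ± 8.03 in high glucose, and Tcf7l2 31.3% ± 1.87 and 15.9% ± 4.65, both without overlap. The sum was 1.85 ± 0.266 FPKM in low and 3.21 ± 0.0935 FPKM in high glucose. Tcf7 had a log2 fold change of 0.39 ± 0.32 (SE). Lef1 did not pass the filter, with 0.722, 0.260, 0.141 and 0.445 CPM with high glucose and 1.02, 0.268, 0.710 and 0.096 CPM with low glucose, which overlapped. Of the 3 factors tested, 0 fell in edgeR, also at an unadjusted p under 0.05, and in DESeq2 and limma-voom.

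**Figure D3:**
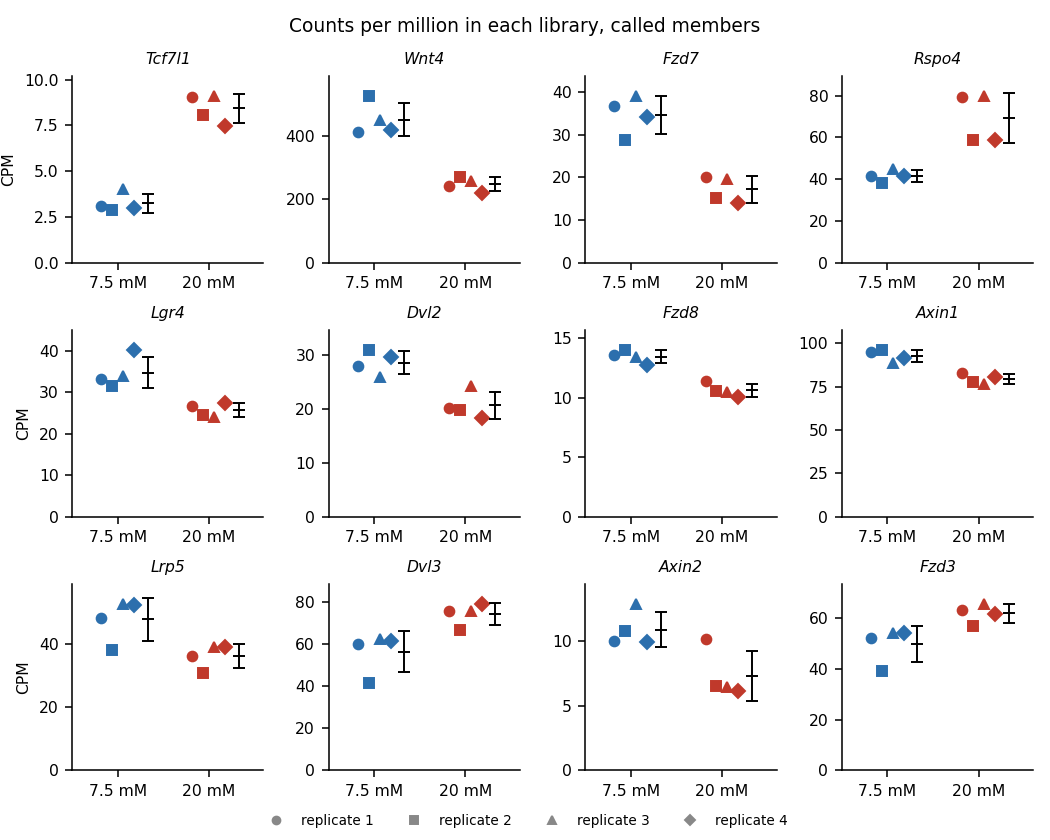
CPM of the 12 called members in each library (marker shape gives the replicate number; the bar is the mean ± SD of 4). Tcf7l1, Wnt4, Fzd7 and Rspo4 have wide gaps between the groups, while a high glucose library of Axin2 (10.2 CPM) and a low glucose library of Lrp5 (38.1 CPM) lie among those of the other group.

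Of the called members, 6 overlap another gene of the table: Axin2, Dvl2, Dvl3, Tcf7l1, Rspo4 and Fzd3. With the strand setting of the counting not given, reads there may be shared or dropped, so these values are uncertain. Most of the overlapping genes had few counts, at most 27 over 8 libraries beside Axin2, Tcf7l1, Rspo4 and Fzd3 and 114 beside Dvl3. Acadvl, on the strand opposite to Dvl2, was at 43.1 CPM with high glucose and 39.0 CPM with low glucose (log2 fold change 0.15, adjusted p = 0.153).

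In the authors' deposited table the same 12 members had an adjusted p under 0.05, 4 higher and 8 lower. That comparison uses the same 8 libraries and counts, so the match is not independent evidence. DESeq2 as run here also called 4 members higher and 8 lower, where 24.9% of all genes were called. The authors' deposited table gives Wnt4 a log2 fold change of -0.86 and Tcf7l1 one of 1.38.

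**Figure D4:**
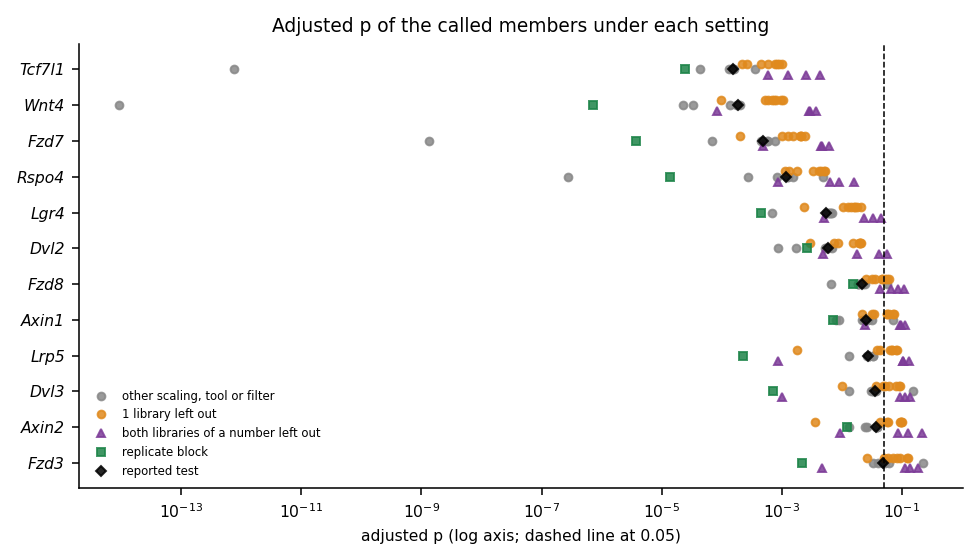
Adjusted p (log axis) of the 12 called members in the reported test (black diamond) and under the 20 other settings, with the threshold of 0.05 dashed. Tcf7l1, Wnt4, Fzd7, Rspo4 and Lgr4 stay left of the line throughout, and Fzd3 crosses it in 13 settings.

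Other genes of the pathway were followed through 4 lists. Of 42 regulators of β-catenin outside the set, 41 were tested, 1 rose and 8 fell, with a median log2 fold change of -0.10 against -0.01 for all genes. The share that fell, 19.5%, stands beside the background of 11.9%, and the share that rose, 2.44%, beside 13.1%. In either direction 22% were called, below the background of 25.0%. Dact2, which encodes a Dishevelled-binding antagonist, fell 1.93-fold from 53.6 ± 6.70 to 27.8 ± 0.726 CPM (adjusted p = 5.07e-05), and its relative Dact1 fell 1.74-fold. Tle3, a Groucho co-repressor gene, fell 1.61-fold, while Tle1, of the same family, rose 1.33-fold. Btrc, the substrate receptor of the ubiquitin ligase for β-catenin, fell 1.40-fold. With the replicate block 3 rose and 12 fell, where 37.4% of all genes were called, and without low glucose replicate 2 the count called was 14 in place of 9, where the background was 32.4%.

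Of 20 tested extracellular and membrane modulators outside the set, 3 rose and 2 fell (median log2 fold change 0.15), and the share called equals the background of 25.0%. Apcdd1, a membrane inhibitor of WNT signalling, was at 9.38, 8.52, 8.53 and 9.54 CPM with high glucose and 1.78, 1.82, 1.47 and 2.02 CPM with low glucose. That is a 5.07-fold rise (log2 fold change 2.34 ± 0.15 SE). Cthrc1, a secreted glycoprotein gene linked to non-canonical WNT signalling, rose 3.97-fold, to between 7.64 and 10.6 CPM from between 1.54 and 3.53 CPM. Its highest value was in high glucose replicate 1, the library with the highest fibroblast marker sum, and the part of fibroblasts in this rise was not tested. Tmem198 rose 1.53-fold, Kremen1, a DKK receptor gene, fell 1.52-fold, and Frzb, which encodes a secreted relative of the SFRP proteins, fell 1.30-fold from 253 ± 10.2 to 195 ± 12.8 CPM.

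Of 37 tested planar polarity and non-canonical genes, 2 rose and 3 fell (median -0.12), below the background in each direction. Camk2b, a calcium-dependent kinase gene, fell 1.30-fold, Nfatc2 fell 1.54-fold and Nlk fell 1.17-fold, while Nfatc1 and Wdpcp rose 1.34-fold and 1.19-fold. With the replicate block 2 rose and 7 fell (background 37.4%), and under scaling by library totals 0 rose and 4 fell. With 1 library left out the count of 5 became 2 to 8, highest without low glucose replicate 2 (background 32.4%) and lowest without high glucose replicate 1 or 4 or low glucose replicate 1 or 3. Nlk lost its call when any library but low glucose replicate 2 was left out (0.0527 to 0.127), and so did Wdpcp (0.0654 to 0.094). Nfatc1 lost it on leaving out high glucose replicate 1 or 4 or low glucose replicate 1 or 3 (0.065 to 0.0904).

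Of 37 tested genes reported as targets of β-catenin and TCF, 7 rose and 4 fell (median 0.08), which is 29.7% against the background of 25.0%. The cyclin genes Ccnd1 and Ccnd2 rose 2.01-fold and 1.45-fold, Cd44, a hyaluronan receptor gene, 1.70-fold and Birc5, an anti-apoptotic mitosis gene, 2.72-fold to 4.24 ± 1.02 CPM. Vegfa, Glul, Id2 and Tcf4 fell, by 1.40-fold, 1.41-fold, 1.45-fold and 1.26-fold. Many of these genes answer to other signals as well, and cyclins and Birc5 are general proliferation genes. Myc, named here after its values were seen, was at 12.7, 12.4, 13.2 and 23.2 CPM with high glucose and 15.1, 12.7, 9.61 and 18.6 CPM with low glucose, with overlap (adjusted p = 0.724).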

How the data were processed

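RNA of 8 islet libraries (4 per glucose concentration, per the labels) was analysed from 1 deposited table. Per the submitters' processing notes, STAR 2.5 and HTSeq 2 were used with mm10 (GRCm38), and DESeq2 is named. The strand setting is not given in the sources used here. The table holds the authors' raw read counts per gene, their normalized signal (count over 1 size factor per library), their FPKM (count over gene length and 1 total per library, checked against the counts) and the log2 fold change and p-value columns of the authors' own comparison.

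The raw counts went into edgeR 4.0.16 under R 4.3.3 (TMM, filterByExpr with minimum count 10 and minimum total 15, quasi-likelihood test with group as the only term, 15442 genes). CPM use TMM-adjusted library sizes, and SE is the log2 fold change over the square root of F. FPKM were used to compare levels between genes, and for the family shares and summed family levels that are compared between the groups. FPKM are scaled by a library total and not by TMM. The summed levels therefore rest on a different scaling from the CPM and the tests, while shares within a library do not depend on it. No test was run on FPKM. Alternatives were DESeq2 1.42.0, limma-voom (limma 3.58.1), other scalings and filters, a replicate block and left-out libraries. Same-numbered libraries deviated together from their group means over log2 CPM (r = 0.101, 0.449, 0.404 and 0.475 for numbers 1 to 4), so the numbers were taken to pair them, which rests on the data and not on the labels. Number 1 lies only just above the minimum of 0.1, and high glucose replicate 4 correlated more with low glucose replicate 1 (0.207). No libraries were copies of each other (chi-square per gene at least 12.9). The pipeline was tested on simulated data, where it called 65.2% of 1.5-fold, 73.1% of 2-fold and 98.4% of 4-fold changes. Of 166 calls there, 11 were false. Real changes of 1.5-fold or 2-fold were thus missed in part.

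The members and lists were chosen with earlier results of these data known. By the naming rule, every called member is named, a panel of 11 members is given per library whatever its result (Axin2, Ctnnb1, Tcf7l2, Lef1, Lgr5, Wnt4, Fzd3, Lrp5, Rspo1, Sfrp5 and Dkk3), along with the most abundant member of each role, and up to 4 called genes per direction of each other list. Further members that were not called, and Myc, are named after their values were seen. For the annotation release and multi-mapping reads the setting is likewise not given in the sources used here. The floor of 3 counts covers counting error only.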

Additional observations from a re-analysis of the deposited data

Results flagged for a closer look

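Each of the 40 tested members was examined in both groups for a library far from the other 3 (its gap to the nearest of them, over the range, above Dixon's 95% critical value), which chance gives for about 1 group in 20, or about 4 of these 80. It was found in 9. Low glucose replicate 2 was the lowest for Apc (66.9 CPM, others 116 to 118), Dvl3 (41.7 CPM, others 59.9 to 62.2) and Fzd3 (39.3 CPM, others 51.9 to 54.0). High glucose replicate 2 was the lowest for Lrp6 (61.6 CPM, others 77.9 to 80.6) and Znrf3 (12.2 CPM, others 14.2 to 14.5). High glucose replicate 1 was the highest for Axin2 (10.2 CPM, others 6.11 to 6.50). The remaining ones were Tcf7 in low glucose replicate 1 (0.72 CPM, others 1.18 to 1.25), Tcf7l1 in low glucose replicate 3 (4.02 CPM, others 2.89 to 3.07) and Dkk2 in high glucose replicate 3 (2.69 CPM, others 0.202 to 0.625).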

How the results depend on the processing

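Over all genes, 3854 changed, and 2180 to 5132 with 1 library or both libraries of a number left out. Members that rose numbered 4, and 2 with library size alone and 2 to 6 with libraries left out. Members that fell numbered 8, and 3 to 11 with libraries left out. With the replicate block, the called β-catenin regulators numbered 15 in place of 9 and the planar polarity genes 9 in place of 5, the latter also 3 with no filter. No reported call of a member was lost under the block. With libraries left out these lists gave 6 to 15 and 2 to 9, and the β-catenin targets 7 to 14 in place of 11. None of the 12 called members changed direction in any setting run. Members that were not called did so with libraries left out, over these log2 fold change ranges: Apc (-0.2881 to 0.0122), Dvl1 (-0.0280 to 0.0720), Gsk3a (-0.0077 to 0.0476), Wnt11 (-0.21 to 0.66), Wnt2b (-0.51 to 0.37), Wnt7b (-0.8500 to 0.0482), Wnt9a (-0.13 to 0.25), Tcf7l2 (-0.4763 to 0.0271), Fzd6 (-0.1450 to 0.0423), Dkk2 (-0.89 to 0.97) and Sfrp1 (-0.16 to 0.85). Scaling by library size alone turned Dvl1 to -0.0546 and Gsk3a to -0.0547, and shifted the median of all genes from -0.013 to -0.094. The causes were not tested. Members with few counts, such as Dkk2 and Wnt11, have wide errors. The 20 members below the filter had at most 2.13 CPM in a library, and changes there were not tested in the reported fit.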
